A study of Procambarus virginalis with 3 samples.

Results

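Hemocytes are the circulating blood cells of crustaceans. They carry out phagocytosis, encapsulation, clotting and the release of antimicrobial peptides, and they exist as several morphological types whose proportions can differ between animals. The marbled crayfish (Procambarus virginalis) reproduces by parthenogenesis, and its animals form a clone. RNA-seq was analysed in 3 hemocyte libraries, named hem37, hem39 and hem40, which belong to a single group. The labels give wild animals pooled from lake Reilingen as the source of every library and state neither their number per library nor their age. The study describes the hemocyte datasets as independent, but the labels do not say which animals each library holds. Differences between libraries therefore describe these 3 libraries, with 1 on each side of any contrast, and no test over samples was made.

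The genes described here are 68 gene models whose share of counts was lower in hem37 than in both other libraries. They were selected on expected counts, which are the numbers of reads that the program RSEM assigned to each model. Of the 21773 models in the files, 16140 had a mean expected count of at least 10. Each count plus 0.5 was divided by the total of its library, and a model was taken when this share in hem37 was under 20% of that in hem39 and under 20% of that in hem40. The 68 models amount to 0.421% of the genes kept. Low values in hem37 are thus the criterion itself and are given as a description. Without hem39, where only hem40 is compared with hem37, 141 models met the criterion, and without hem40 there were 154.

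The models carry names from genome annotation that state a scaffold and a prediction method. The files do not pair these names with gene names, so no function is given for any model, and no markers of hemocyte types could be checked. A bulk library also cannot tell fewer cells of a type apart from less RNA per cell. Library totals were 18986789 (hem37), 17367967 (hem39) and 21143354 (hem40) expected counts, so hem37 was not the shallowest library. The study lists single-end reads for these libraries and a lower mapping rate for hem37 than for hem39 and hem40. A model at 0 has an upper limit of 3 counts. At the median effective length of the 68 models, this limit corresponds to 0.201 TPM (the length-corrected share of transcripts given by RSEM) in hem37.

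**Figure D1:**
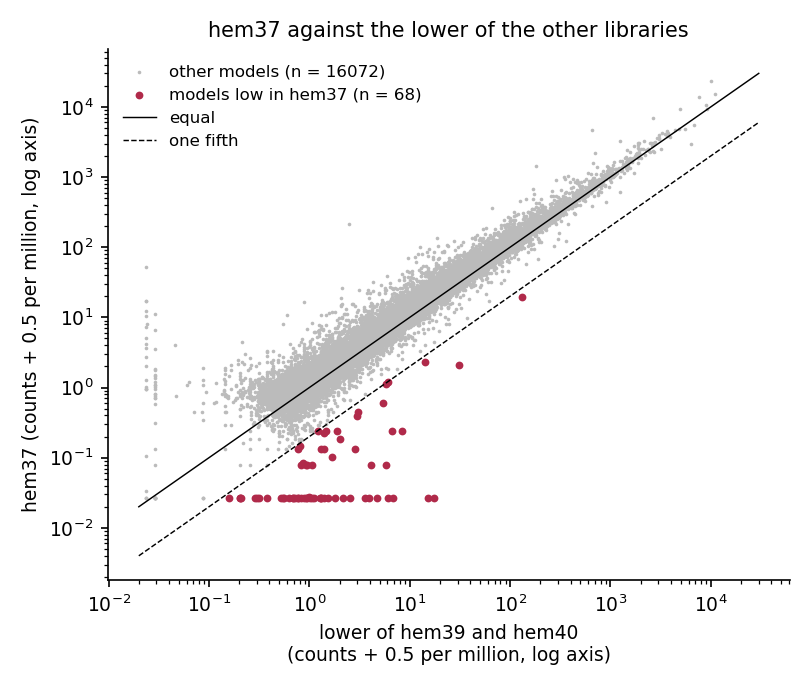
Share of expected counts in hem37 against the lower of the shares in hem39 and hem40 for 16140 models, in counts plus 0.5 scaled to library totals on log axes. The 68 selected models lie below the dashed line at 20%, and the horizontal row of points holds the models without counts in hem37.

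Most of the 68 models were at or near 0 in hem37. Their median TPM was 0 in hem37, whereas hem39 reached 3.83 and hem40 reached 3.18. Their summed TPM was 25.9 in hem37, compared with 800.1 in hem39 and 1085 in hem40. Most of the remaining signal in hem37 came from few models, as the 5 highest held 85.0% of it. The 5 highest models of each other library held 58.3% of the summed TPM in hem39 and 43.7% in hem40. The expected count in hem37 was exactly 0 for 38 models, between 0.5 and 3.5 for 14 models and at least 10 for 6 models. In the other libraries the models were mostly of low to moderate abundance. A TPM of at least 1 was reached by 53 models in hem39 and by 54 in hem40, and a TPM of at least 10 by 17 and 16. The median over all genes kept was 9.65 in hem39 and 12.2 in hem40.

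**Figure D2:**
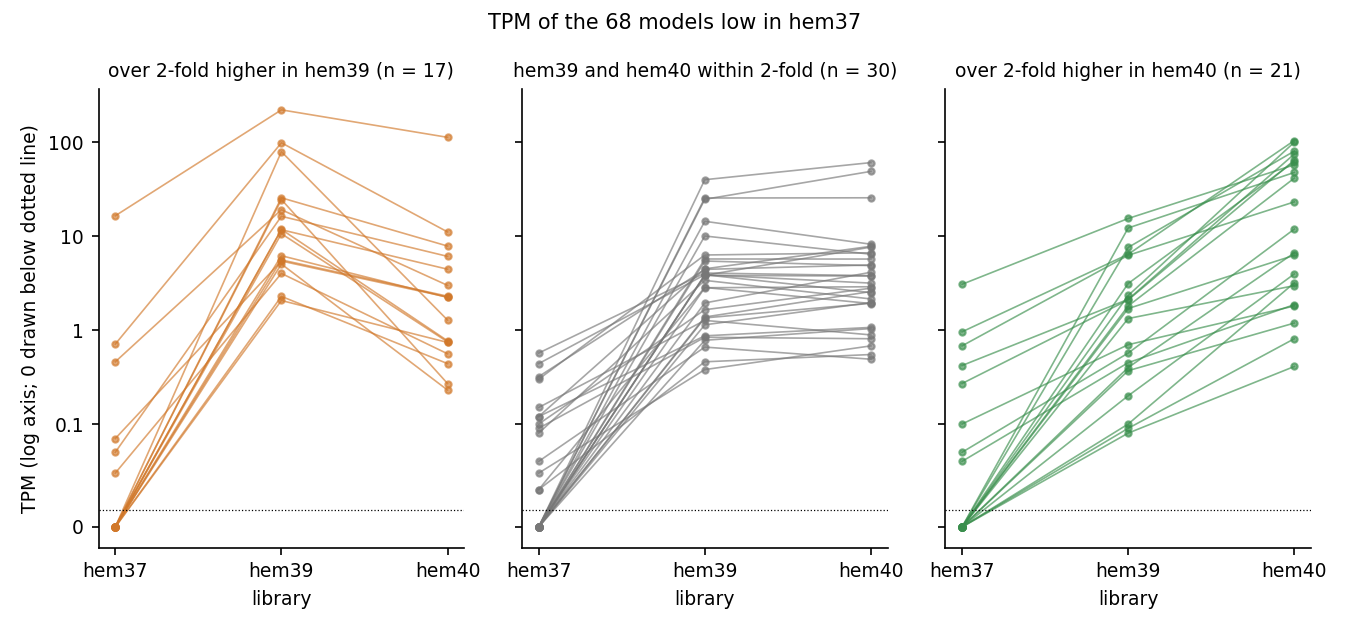
TPM of the 68 models in each library on a log axis, 1 line per model, with values of 0 drawn below the dotted line. The panels separate 17 models that were over 2-fold higher in hem39 than in hem40, 30 models within 2-fold and 21 models over 2-fold higher in hem40.

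The strongest signal belonged to maker-scaffold15639-snap-gene-0.17 (1182 bases), the only model of the 68 with over 100 counts in hem37. From 375 counts in hem37, 4701 in hem39 and 2772 in hem40, its TPM was 16.5, 222.3 and 113.3. It was thus still present in hem37, at a level 13.7-fold below hem39 (95% exact interval 12.3 to 15.3) and 6.64-fold below hem40 (5.96 to 7.41). All such intervals were obtained by the Clopper-Pearson method and cover counting error only. Those against hem37 rest on the contrast used for the selection and are given as a description. A lower and more uneven signal was seen for maker-scaffold48176-snap-gene-0.17 (2763 bases), whose TPM was 0.71, 99.1 and 11.1 in the same order. This model had 38.8 counts in hem37 and 5022 in hem39, the highest count of the 68 models in that library.

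Other abundant models were at or near 0 in hem37 and high in a single library. The model maker-scaffold2349-snap-gene-0.0 (416 bases) had 0 counts in hem37, 16 in hem39 and 795 in hem40, with a TPM of 100.5 in hem40. Its share in hem40 was 238-fold the limit of 3 counts in hem37, and the exact interval of this ratio began at 193.1-fold. The model maker-scaffold1422-exonerate_protein2genome-gene-0.1 (258 bases) had 4, 25 and 471 counts in hem37, hem39 and hem40, which corresponds to a TPM of 0.96, 6.43 and 104.8. In both models hem39 was closer to hem37 than to hem40 in counts.

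By contrast, the absence in hem37 was clearest where hem39 and hem40 both had many counts. There were 12 models with at least 100 counts in each of these libraries, and 4 of them had 0 counts in hem37. The model maker-scaffold47466-snap-gene-0.3 (708 bases) had 304.5 counts in hem39 and 699.0 in hem40, so that the shares were 111-fold and 209-fold the limit in hem37. The 95% exact intervals of the ratios to hem37 began at 89.55-fold and 169.7-fold. Ratios to hem37 were used to select and name these models, so such intervals are a description and not a test. For snap_masked-scaffold302873-processed-gene-0.2 (399 bases), counts of 261.3 and 459.7 gave 95.2-fold and 138-fold, with intervals from 76.8-fold and 111.5-fold. These models had a TPM between 24.8 and 60.9 in hem39 and hem40 and were listed at 0 in hem37. The other models of this kind were snap-scaffold64628-processed-gene-0.6, with 122.3 and 142.2 counts, and maker-scaffold47466-snap-gene-0.2, with 122.9 and 127.1 counts. Their shares were 44.6-fold and 42.6-fold the limit for the former and 44.8-fold and 38.0-fold for the latter. The intervals began at 35.6-fold and 34.1-fold for the former and at 35.9-fold and 30.5-fold for the latter.

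At the threshold, the models just inside were snap_masked-scaffold22003-processed-gene-0.1 and maker-scaffold67272-snap-gene-0.0. Their shares in hem37 were 0.198 and 0.197 of the lower share of the other libraries. Just outside were maker-scaffold127473-snap-gene-0.0 (0.207) and snap-scaffold48385-processed-gene-0.0 (0.208). The first inside model had 22.2 counts in hem37, 104.4 in hem39 and 450.5 in hem40, and the first outside model had 5.29, 25.2 and 92.4, so the threshold falls within a continuous range of values.

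Not every 0 in hem37 is equally firm, because RSEM divides reads that align to several models. The files give a posterior standard deviation of each count, which is 0 where no read was in question. It was 0 in all 3 libraries for 33 of the 68 models (48.5%), compared with 5223 of the 16140 genes kept (32.4%). Of the 38 models at 0 in hem37, 30 had no such uncertainty in hem37. In 7 others the posterior mean in hem37 was 1 count or more, up to 26.1 ± 24.8 counts (posterior standard deviation) for snap_masked-scaffold77740-processed-gene-0.30, which has an expected count of 0. Of the 40 models under 0.5 counts, 9 had such a posterior mean, including maker-scaffold1882-snap-gene-0.27 with 0.01 expected counts and a posterior mean of 93.5 ± 89.5. For these 9 models the fold values against 3 counts do not cover the division of reads. Within hem37 the posterior standard deviation was largest for snap_masked-scaffold22003-processed-gene-0.1, at 107.8 for 22.2 expected counts. In hem39 it was largest for maker-scaffold1882-snap-gene-0.27, at 192.4 for 324.9 expected counts. The RSEM interval of TPM in hem37 lay below those of hem39 and hem40 for 48 of the 68 models and overlapped at least 1 of them for 20. This held for 3.57% of all genes kept, a figure that rests on the same contrast as the selection.

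The number of models low in hem37 was next set beside the numbers obtained when the same criterion was applied to the other libraries. It was met by 84 genes in hem39 and by 36 in hem40. With library totals, the order changed with the required fold. At a 2-fold difference, 281 genes were low in hem37, 878 in hem39 and 185 in hem40. At 20-fold, the numbers were 37, 18 and 17. The median log2 ratio of hem39 over hem40 over all genes kept was -0.23 with library totals and -0.02 with TMM scaling, which is described below. The numbers at each fold were not recomputed with that scaling, so its part in the order was not tested. The criterion of 5-fold was thus also met at 20-fold by 37 of 68 genes in hem37, 18 of 84 in hem39 and 17 of 36 in hem40. Counts of exactly 0 in the low library were found for 38 of 68 genes (55.9%) in hem37, 20 of 84 (23.8%) in hem39 and 15 of 36 (41.7%) in hem40. These counts were not compared by a test, since each is defined by its own threshold.

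**Figure D3:**
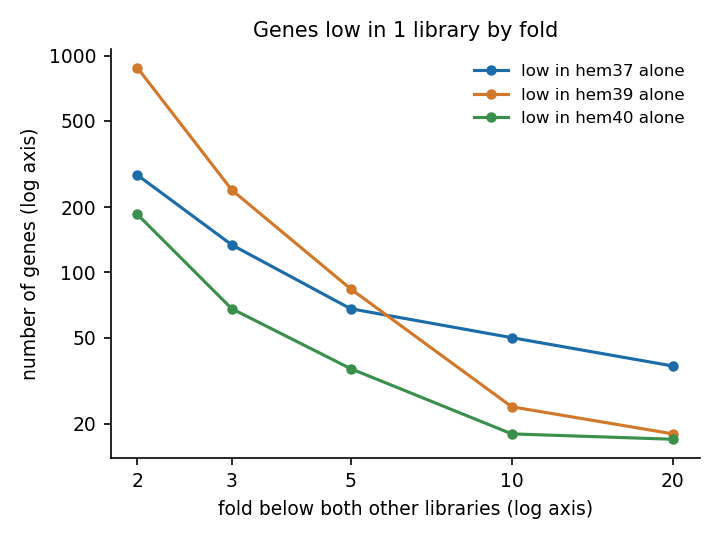
Number of genes whose share in 1 library was below both other libraries by at least the fold on the x axis, on log axes, with 1 line per low library. The line for hem37 goes from 281 genes at 2-fold to 37 at 20-fold, and the line for hem39 from 878 to 18.

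Several of the models shared scaffolds. The 68 models lay on 60 scaffolds, of which 54 held 1 model of the group and 6 held 2 or 3, for a total of 14 models (20.6%). Under the same criterion, 4 of 84 genes low in hem39 and 2 of 36 genes low in hem40 shared a scaffold with another. A matching share over all genes kept is not given here, so whether 20.6% is unusual was not tested. On 5 of the 6 scaffolds, no model in the files had a count in hem37, whether or not it belonged to the 68. After these values had been seen, all scaffolds with at least 2 of the genes kept were searched for such cases. Of 3429 scaffolds, 6 had no count on any of these genes in hem37, and all 6 had counts in both other libraries. No scaffold was without counts in this way in hem39 or in hem40. Genes kept that were at 0 in a single library were also more frequent in hem37, with 41, compared with 22 in hem39 and 17 in hem40. The difference between the libraries in such scaffolds was not tested. The 6 scaffolds carry 18 models, 13 of which belong to the 68, and together these models had 928.7 counts in hem39 and 3001 in hem40, compared with 0 in hem37.

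The highest counts summed over hem39 and hem40 were on scaffold47466. Its 4 models summed to 446.4 counts in hem39 and 870.1 in hem40. Besides the pair described above, evm-scaffold47466-processed-gene-0.4 had 19.0 and 43.9 counts, and the remaining model was at 0 in every library. On scaffold41255, the 4 models summed to 156.4 and 951 counts. The highest was maker-scaffold41255-snap-gene-0.27 (360 bases), with a TPM of 7.61 in hem39 and 80.8 in hem40. The models of this scaffold did not keep a common ratio, because maker-scaffold41255-snap-gene-0.29 had 80.6 and 364.0 counts, whereas maker-scaffold41255-snap-gene-0.30 was higher in hem39, with 30.8 and 12.7 counts. The remaining model there, maker-scaffold41255-snap-gene-0.28, had 1 and 33 counts and did not meet the criterion. On scaffold9192, counts were nearly confined to hem40, with 27 in hem39 and 746 in hem40. Its model maker-scaffold9192-snap-gene-0.21 had 24 and 551.2 counts, and maker-scaffold9192-snap-gene-0.20 had 3 and 58. The remaining scaffolds without counts in hem37 were scaffold64628 (199.5 and 148.0 counts), scaffold39305 (13.0 and 239.0 counts) and scaffold139364 (86.4 and 47 counts).

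**Figure D4:**
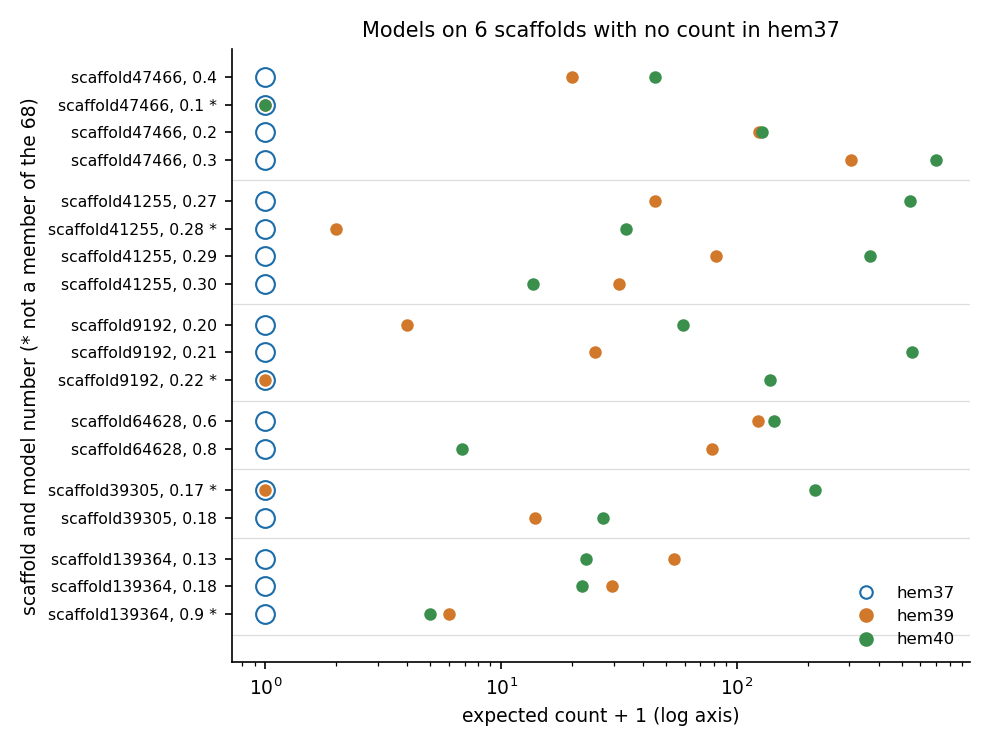
Expected count plus 1 on a log axis for each model in the files on 6 scaffolds without counts in hem37, with open rings for hem37 and filled points for hem39 and hem40. All 18 rings lie at a count of 0, and an asterisk marks the 5 models that are not among the 68.

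Each of the 6 scaffolds with 2 or 3 models of the group includes models with a posterior standard deviation above 0 in hem39 or hem40, so some of their reads were divided between models. This uncertainty was small relative to most counts, at 1.24 of 699.0 counts for maker-scaffold47466-snap-gene-0.3 in hem40 and 17.1 of 551.2 for maker-scaffold9192-snap-gene-0.21. Models that share reads are not separate observations. When only models without any posterior uncertainty were kept, 33 models remained, and none shared a scaffold with another. This restriction removes models that share reads with each other, so it cannot show whether low models lie together.

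Outside the 6 scaffolds without counts in hem37, most neighbors of the low models among the genes kept had signal in hem37. On scaffold7489, maker-scaffold7489-snap-gene-0.0 had 0, 429.7 and 5.54 counts in hem37, hem39 and hem40. On the same scaffold, snap-scaffold7489-processed-gene-0.3 had 0.99, 112.0 and 87.3 counts. The remaining model there was similar in the 3 libraries, with 31.3, 22.9 and 25.9 counts. Among the 54 scaffolds with a single model of the group, 25 held at least 1 other gene kept, with 45 such genes in all. Their share in hem37 relative to the mean of hem39 and hem40 had a median of 1.05, with quartiles at 0.875 and 1.24, close to the values for all genes kept (median 1.03, quartiles 0.868 and 1.21). This ratio was under 0.5 for 5 of the 45 neighbors, compared with 664 of the 16140 genes kept (4.11%). The share was thus higher among the neighbors, and this difference was not tested. The 5 neighbors included maker-scaffold39305-snap-gene-0.17, with 0, 0 and 213 counts, which lies on 1 of the 6 scaffolds without counts in hem37. They also included 2 models on scaffold35000 that were high in hem40, with up to 225.0 counts there and 15 in hem37.

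The ratio of hem39 to hem40 was not itself a criterion, but it was not independent of the selection. A model near 0 in hem37 reached the minimum mean count through whichever of hem39 and hem40 was high, and 9 of the 68 models had under 10 counts in 1 of them. The values over all genes kept are given beside those of the 68 as a description, and no excess is read from them. The 68 models did not share a level in these libraries. Of the 68, 17 were over 2-fold higher in hem39, against a background of 4.13% of all genes kept, and 21 were over 2-fold higher in hem40, against 10.2%. The other 30 models were within 2-fold. The median absolute log2 ratio was 1.33 for the 68 models and 0.40 over all genes kept. It was 0.52 between hem37 and hem40 for the 84 genes low in hem39, and 0.78 between hem37 and hem39 for the 36 genes low in hem40. The median log2 ratio of hem39 over hem40 was -0.13, with quartiles at -1.79 and 0.92, compared with -0.23 for all genes kept (quartiles -0.59 and 0.11). The mean TPM of the 68 models over the 3 libraries had a median percentile of 14.3 among the genes kept. That mean includes hem37, where the criterion itself requires low values, so the percentile is lowered by the selection. The part of low levels in the wider ratios was not tested. Across the 68 models, log shares in hem39 and hem40 had a Pearson's r of 0.337 and a Spearman's rho of 0.270. Across the 16140 genes kept, the values were 0.948 and 0.957. These correlations describe models within the same pair of libraries, and models are not replicates.

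The scaling of the libraries affected the background of this ratio. With TMM library sizes, the median log2 ratio of hem39 over hem40 over all genes rose by 0.21. Of the genes past 2-fold, 28.8% were higher in hem39 with library totals and 46.5% with TMM. The background was then 5.87% for hem39 and 6.75% for hem40, and 18 and 20 of the 68 models passed 2-fold. With DESeq2 size factors the shift was 0.23, and again 18 and 20 models passed.

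**Figure D5:**
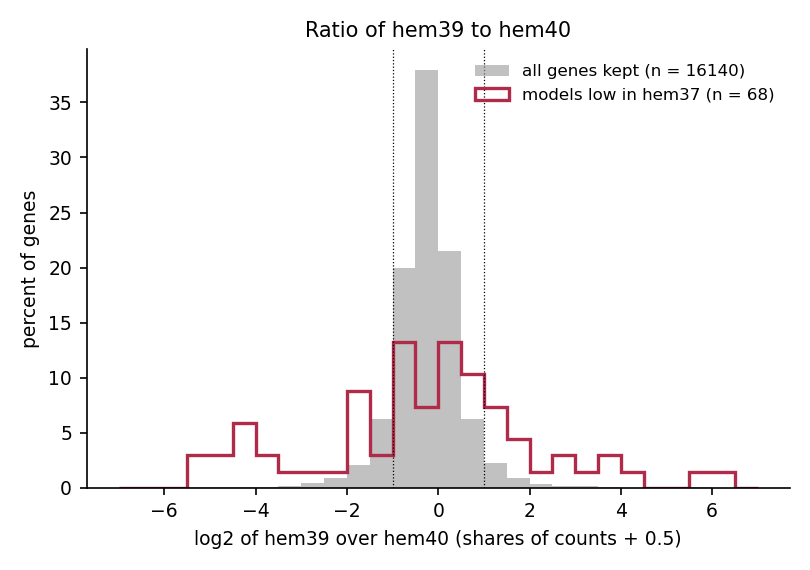
Distribution of the log2 ratio of hem39 over hem40 for the 68 models low in hem37 (outline) and for all 16140 genes kept (filled), as percent of each set, with dotted lines at 2-fold. The 68 models reach from -5.31 to 6.44, with 30 of them between the dotted lines.

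The largest ratios exceeded 10-fold, in 5 models toward hem39 (0.403% of all genes kept) and in 10 models toward hem40 (0.458%). Toward hem39, maker-scaffold7489-snap-gene-0.0 was 86.7-fold higher than in hem40 (95% exact interval 39.8 to 239.1). That ratio rests on 5.54 counts in hem40 with a posterior standard deviation of 1.61, which the interval does not cover. The next was snap-scaffold377529-processed-gene-0.1 (447 bases), which was 62.6-fold higher (36.3 to 131.7) with 0, 591 and 11 counts in hem37, hem39 and hem40. This model had no reads in question and a TPM of 79.7 in hem39 and 1.28 in hem40. Toward hem40, maker-scaffold2349-snap-gene-0.0 was 39.6-fold higher than in hem39 (24.98 to 71.8). It was followed by snap_masked-scaffold26993-processed-gene-0.10 (2562 bases), which was 33.4-fold higher (27.5 to 41.3) with 21, 100 and 4083 counts. In all 4 models, hem37 and 1 other library were low and the remaining library was high.

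The models over 2-fold higher in hem40 had a median TPM of 1.70 in hem39 and 11.9 in hem40, and 15 of the 21 had no reads in question in any library. The models over 2-fold higher in hem39 had medians of 11.7 and 2.23, and 6 of the 17 had no reads in question. For the 30 models within 2-fold, the medians were 3.61 and 3.04, with 12 models without reads in question. The numbers at 0 in hem37 were 13 of 21, 10 of 17 and 15 of 30.

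The model types differed in their shares. The name maker with snap marks a gene predicted by the ab initio program SNAP and revised by the MAKER pipeline with evidence from transcripts or proteins. This type made up 36 of the 68 models (52.9%) and 28.8% of the genes kept. The names snap and snap_masked with processed mark SNAP predictions without that revision. They made up 24 models (35.3%), compared with 46.5% of the genes kept. Models named evm, after the program EVidenceModeler, contributed 4 models (5.88%, compared with 11.6%). Models built directly from aligned transcripts, named est2genome, contributed 2 (2.94%, compared with 12.6%), and those built from aligned proteins, named protein2genome, contributed 2 of the 93 kept. The est2genome models were maker-scaffold2102-exonerate_est2genome-gene-0.22, with 0, 43 and 32 counts in hem37, hem39 and hem40, and maker-scaffold76812-exonerate_est2genome-gene-0.17, with 0, 14 and 34.3 counts. The est2genome models were named here after their values had been seen. Without a minimum count, where 246 models met the criterion, the est2genome share was 10.2%, and without hem39 it was 6.38%. No test of these shares was made.

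The models ranged from 201 to 4669 bases in length, with a median of 795 and quartiles at 409 and 1711, compared with a median of 636 for the genes kept. A single model of the 68, maker-scaffold101903-exonerate_protein2genome-gene-0.16, has more than 1 annotated transcript, compared with 236 of the 16140 genes kept. Within the largest type, the median length was 1015 bases for the 36 models low in hem37 and 1239 bases for all kept models of that type, so within this type the models low in hem37 were the shorter ones by median.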

How the data were processed

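Total RNA of hemocytes was converted to TruSeq libraries, sequenced and quantified by the authors with RSEM 1.2.30. The submitters' processing notes also name HISAT2 2.0.4, without its role, and for the genome build a statement was not given in the sources used here. Expected counts, as deposited, are not normalized, and reads that align to several models are divided between them. The deposited TPM values were divided by effective length and scaled by the authors. The posterior standard deviation and the bounds of the TPM interval, also deposited, were handled as scores. The level of these intervals is not given in the files.

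Totals of expected counts were used as library sizes, with a pseudocount of 0.5 and a minimum mean count of 10. Intervals of ratios are 95% Clopper-Pearson intervals on rounded counts and cover counting error only. Molecular identifiers are not mentioned, so reads are not independent molecules. For models with under 0.5 counts in hem37, fold differences were computed against 3 counts there. TMM and size factors were taken from edgeR 4.0.16 and DESeq2 1.42.0 on rounded counts, and these tools were used for scaling only. Python 3.11.15, numpy 2.4.6, pandas 2.3.3, scipy 1.17.1 and R 4.3.3 were used. The criterion was run on simulated Poisson counts in which some of the more abundant genes were lowered in hem37. That simulation held no divided reads and no spread beyond counting error, so it does not cover them.

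All 3 libraries form 1 group. The models and the criterion were chosen with earlier results of these data known. Models were named for the 6 highest mean TPM in hem39 and hem40, the 4 lowest ratios to hem37 with at least 100 counts in both other libraries, the 2 highest and 2 lowest ratios of hem39 to hem40 with at least 50 counts in their sum, the 4 scaffolds with most models and the 2 models on each side of the threshold; others were chosen after their values were seen.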

Additional observations from a re-analysis of the deposited data

How the results depend on the processing

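Of 56 alternative values, 40 stayed close to the reported ones (within 1.5 times for the number of models and the ratio, within the 95% exact interval for percentages) and 16 moved. The use of posterior mean counts and the restriction to models with a posterior standard deviation of 0 were chosen after seeing the data. The number of models was 246 without a minimum count, 27 when the mean count had to reach 50, 28 with a pseudocount of 5 and 134 with a 3-fold in place of the 5-fold threshold. It was 34 among genes whose expected counts, deposited with 2 decimals, were exactly whole in every library and 33 among genes with a posterior standard deviation of 0, where fewer genes were tested. Leaving out 1 library gave 141 to 154 models. With TMM or DESeq2 scaling, 67 of the 68 models were kept. The median log2 ratio of hem39 over hem40 was -0.73 with whole counts and -0.74 with a posterior standard deviation of 0, and the cause was not tested. It ranged from -1.70 without hem39 to 1.58 without hem40, where the criterion no longer requires a signal in the omitted library. It changed sign between 4 of the other settings and the reported -0.13, with values up to 0.09, and has no firm direction. The percentage on shared scaffolds was 10.6% without a minimum count and 0% both with whole counts and with a posterior standard deviation of 0. The settings with 0% largely remove models with divided reads, so they cannot show whether low models lie together. The percentage of est2genome models was 0% when the mean count had to reach 50, 10.2% without a minimum count, and 6.38% without hem39 and 3.25% without hem40. The criterion cannot be applied without hem37. No paired analysis was possible because there is 1 group only. Counting depth limits the models at 0 in hem37.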
